A study of Xenopus tropicalis with 16 samples.

Results

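The departure of the mixture from an additive response was measured in the liver transcriptome of female tropical clawed frogs (Xenopus tropicalis). For each gene it is the log2 level in mixture livers, minus that in benzo[a]pyrene livers, minus that in triclosan livers, plus that in unexposed livers. It is 0 when the mixture changes a transcript by the sum of the single-exposure log2 changes, that is, when fold changes multiply. Genes with an FPKM (fragments normalised to transcript length and library size) of at least 1 in at least 4 of 16 libraries were taken, which gave 7025 of the 19921 genes in the tables. Of these, 7021 had at least 3 usable values in each group and were tested. The gene ptx, the globins hba1 and hbg1 and the mitochondrial gene COX1 were not, because the deposited status of too many of their estimates was not OK.

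Compounds that reach the same enzymes and receptors can shift a transcript less or more together than the sum of their single effects. Benzo[a]pyrene, a polycyclic aromatic hydrocarbon, binds the aryl hydrocarbon receptor (AhR), a transcription factor that switches on cytochrome P450 genes of the CYP1 family, and its metabolites form DNA adducts. Triclosan is a chlorinated phenolic antibacterial agent that the vertebrate liver clears mainly by glucuronidation and sulfation. Under additivity on the log scale, knowing the response to each compound alone is enough to predict the response to both.

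The 4 groups were unexposed, benzo[a]pyrene, triclosan and mixture, all female, with 4 livers each, and RNA was taken from 15 mg of tissue per biological replicate. The series title calls the exposure chronic and names endocrine disruptors. The sources used here give no strain, age, dose, duration or make-up of the mixture. The contrast therefore assumes that the mixture held both compounds at the single-exposure doses. The libraries were poly(A)-selected and stranded, with 75 bp reads.

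Depth, inferred from the deposited confidence intervals, was 10.9 to 17.9 M (mega) fragments per library, and 4832 to 6833 genes per library had an FPKM of at least 1. Each library was divided by a scale factor, from 0.584 to 1.339, and levels below are these rescaled FPKM. Ribosomal RNA took 10.59% of summed FPKM in mixture replicate 4 and 3.45% in benzo[a]pyrene replicate 4, against 0.59 to 2.39% elsewhere, and the median Spearman correlation with other libraries was lowest for this pair (0.828 and 0.831, against 0.857 to 0.892). Some results are also given without both. Hepatocyte markers were abundant throughout (25 of 28 tested, summed level 10020 to 27612), as the liver label requires, while 6 of the 11 ovary markers in the tables (dazl, foxl2, gdf9, zp2, zp3 and zpax) were listed at 0 in all libraries and the oocyte gene zar1 stood at 0.342 to 1.28.

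No gene departed from additivity past the test. With limma, 0 of 7021 genes (0%) had an adjusted p below 0.05, and the smallest adjusted p was 0.2. An unadjusted p below 0.05 was found for 491 genes (6.99%), where 351 would fall if p were uniform and genes independent. Of these, 233 (3.32%) lay above the additive prediction and 258 (3.67%) below it. On FPKM as deposited, without rescaling, the split was 85 above and 219 below. The count of called genes was also 0 with limma without the trend and robust options, with weights per library, with additivity on the linear scale (smallest adjusted p = 0.0861) and with a pseudocount of 5 (smallest adjusted p = 0.0515).

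The departures were small for most genes and measured with errors of a like size. The median absolute departure was 0.27 on the log2 scale and the median SE was 0.34. Departures centred near 0 (median -0.02), with 3343 genes above 0 (47.6%) and 3678 below. A departure of more than 1, a further 2-fold beyond the prediction, was seen in 394 genes (5.61%), 233 of them upward. The 95% confidence interval lay wholly within 1 of additivity in 3337 genes (47.5%) and within 0.5 in 224 (3.19%). For the other 3684 genes, a departure of 1 or more was not outside the interval, so additivity was not shown for them. Nor was it shown for the 3337 genes, since an interval within 1 still allows departures of nearly 2-fold. Interval width also depended on the pseudocount, with a median SE of 0.452 at a pseudocount of 0.1 and 0.187 at 5.

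**Figure D1:**
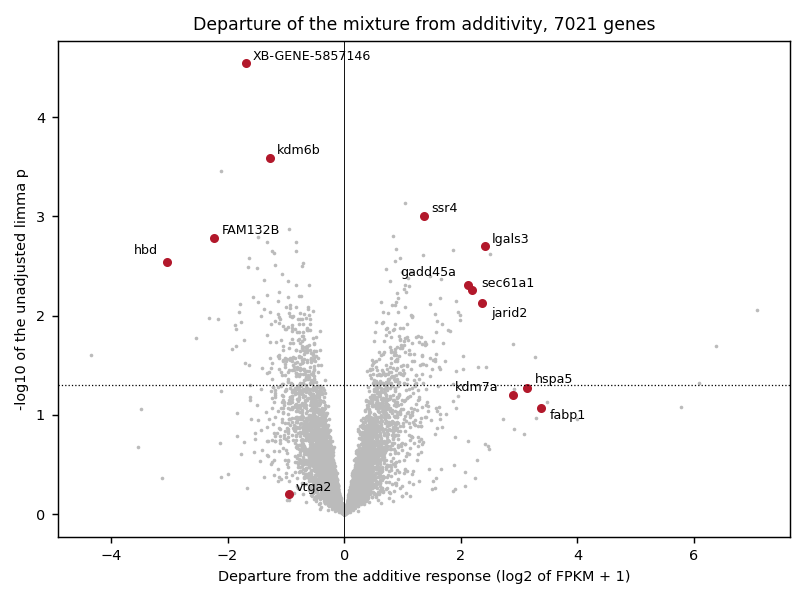
Departure from additivity (x axis, log2 of FPKM + 1) against the -log10 of the unadjusted limma p (y axis) for 7021 genes, 1 point per gene, with 13 genes named in the text in red. The dotted line marks an unadjusted p of 0.05, which 491 genes passed, 233 on the right and 258 on the left, while none reached an adjusted p below 0.05.

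The departure held a smaller part of the between-group variation than either compound did. With 4 groups in a 2 by 2 layout, the differences between groups split into a benzo[a]pyrene factor, a triclosan factor and the departure. Summed over genes, the departure took 28.9% of the between-group sum of squares, the benzo[a]pyrene factor 34.9% and the triclosan factor 36.2%. The mean square of the departure was 0.295, against 0.263 for the spread between replicates. The benzo[a]pyrene factor called 0 genes (0%, 682 at an unadjusted p below 0.05) and the triclosan factor 1 (0.0142%). That gene was nfix, a nuclear factor I transcription factor, with a triclosan factor of 0.81 (SE 0.12, limma adjusted p = 0.0327). The call was lost in the fit that blocked on replicate number, where the smallest adjusted p of this factor was 0.0846. It was also lost without rescaling, without the trend and robust options, on the linear scale, with no filter on low values, and in 10 of 16 fits that left out 1 library (any unexposed replicate, benzo[a]pyrene replicate 1 or 4, triclosan replicate 4, or mixture replicate 1, 2 or 3). Other fits called more genes of 7021. Without benzo[a]pyrene replicate 3 the triclosan factor called 6 and the benzo[a]pyrene factor 4, and with library weights they called 4 and 3. Levels of nfix were 1.08, 1.5, 1.25 and 1.28 in unexposed, 0.266, 0.674, 0.204 and 0.239 in benzo[a]pyrene, 3.28, 1.44, 1.82 and 1.87 in triclosan and 2.27, 2.18, 2.17 and 1.63 in mixture livers. Its departure was 0.78 (SE 0.23, adjusted p = 0.677), since benzo[a]pyrene alone stood below unexposed and the mixture beside triclosan.

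The gene nearest to a call was XB-GENE-5857146, which has no descriptive symbol (ENSXETG00000011506, on GL172651.1 from 3194693 to 3200199, with the build not given in the sources used here). It stood at 1.71, 1.42, 1.61 and 0.9 in unexposed and at 4.83, 5.13, 4.54 and 6.36 in benzo[a]pyrene livers. In triclosan livers it stood at 1.29, 1.58, 1.46 and 2.38, and in mixture livers at 1.34, 0.89, 2.06 and 0.508. The benzo[a]pyrene libraries thus lay above every other library, and the mixture libraries overlapped the unexposed and triclosan ones. Additivity predicted 5.85 for the mixture, a departure of -1.69 (SE 0.29, 95% confidence interval -2.30 to -1.08, limma adjusted p = 0.2). Without mixture replicate 3 the departure was -1.86 and passed (limma adjusted p = 0.0323).

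Regulators of the repressive histone mark H3K27me3 and of other histone methylation were among the genes with sizeable departures, in both directions. Kdm6b (ENSXETG00000015636, scaffold GL173913.1, 55724 to 77743) encodes a demethylase of that mark. It stood at 0.675, 0.614, 1.01 and 0.719 in unexposed, 3.47, 4.22, 1.69 and 3.54 in benzo[a]pyrene, 0.497, 1.01, 1.15 and 0.653 in triclosan and 1, 0.759, 0.857 and 0.458 in mixture livers. Every benzo[a]pyrene library was above every other library, while the mixture overlapped the unexposed and triclosan ones, with replicate 4 below them all, and lay far under the prediction of 3.25. Its departure was -1.27 (SE 0.27, limma adjusted p = 0.677), and -1.48 with an adjusted p of 0.0222 without benzo[a]pyrene replicate 3.

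Jarid2 (ENSXETG00000015433, scaffold GL172669.1, 2967252 to 3028532), a partner of the Polycomb complex that writes H3K27me3, went the other way. It stood at 17.1, 21.1, 12.8 and 16.5 in unexposed, 1.33, 0.994, 14.6 and 0.413 in benzo[a]pyrene, 52.4, 46.1, 22.1 and 40.1 in triclosan and 36.7, 36.6, 28.4 and 41.7 in mixture livers. Benzo[a]pyrene replicate 3 lay inside the unexposed range and the other 3 far below it, and all mixture libraries lay above all unexposed ones. The prediction was 6.09 and the departure 2.36 (SE 0.77, limma adjusted p = 0.677). Without benzo[a]pyrene replicate 3 it was 3.13 (adjusted p = 0.0071), so 1 library decided this call and that of kdm6b, and these were the 2 genes called in that fit. The histone demethylase kdm7a spread more, at 48.2 to 106 in unexposed, 9.61, 1.96, 157 and 0.234 in benzo[a]pyrene, 101 to 292 in triclosan and 132 to 255 in mixture livers. Its benzo[a]pyrene replicate 3 lay above all unexposed libraries and the other 3 below them, and the departure was 2.89 (SE 1.44, adjusted p = 0.695), or 1.87 without benzo[a]pyrene and mixture replicates 4.

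More members of the chromatin regulator list lay below the prediction than above it, with a small median departure. Of 36 tested members, 11 lay above 0 and 25 below, with a median departure of -0.12, beside -0.02 over all genes, of which 47.6% lay above 0. An unadjusted p below 0.05 was reached by 1 member above and 4 below the prediction, against 3.32% and 3.67% of all genes, and 0 were called. Among the 4, msl1, the scaffold of the MSL histone acetyltransferase complex, stood at 3.52 to 5.09 in unexposed, 6.64 to 18 in benzo[a]pyrene, 3.03 to 4.28 in triclosan and 2 to 4.28 in mixture livers (departure -1.33, SE 0.35, adjusted p = 0.677). The CpG-binding SET1 complex subunit cxxc1 differed in layout, since both single exposures stood above unexposed. Its means were 4.14 ± 0.873 in unexposed, 6.64 ± 1.13 with benzo[a]pyrene, 8.31 ± 0.758 with triclosan and 5.53 ± 2.89 with the mixture (SD, n = 4), and its departure was -1.18 (SE 0.33, adjusted p = 0.677).

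**Figure D2:**
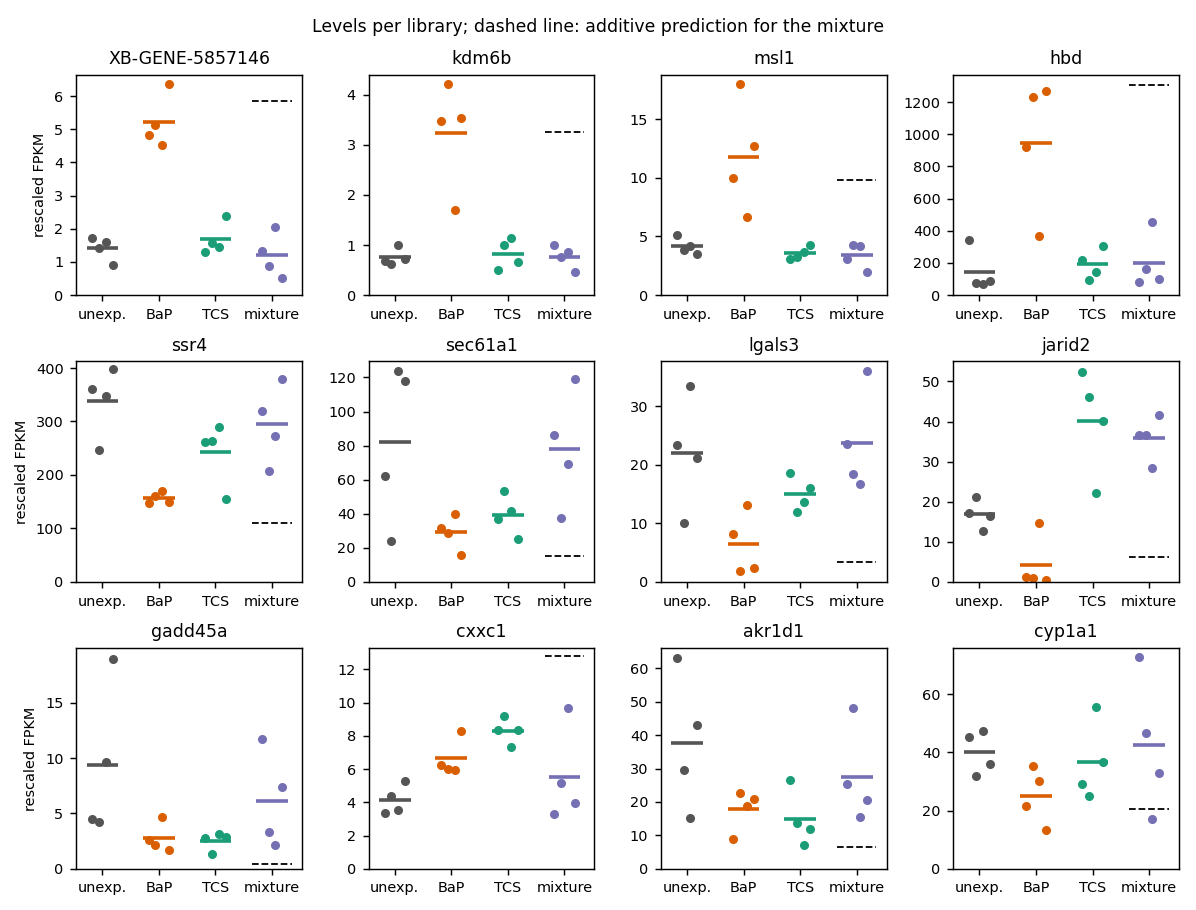
Levels of 12 genes in each of the 16 libraries (y axis, rescaled FPKM), 1 point per library, with a coloured line at each group mean and a dashed black line at the additive prediction for the mixture. The prediction is taken from log2 means, whereas the coloured lines are arithmetic means. Tick labels shorten unexposed, benzo[a]pyrene (BaP) and triclosan (TCS). In kdm6b, msl1 and hbd the dashed line lies above all mixture libraries, and in ssr4, sec61a1, lgals3 and jarid2 below all of them.

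The layout of the 20 named genes with the smallest p, 10 above and 10 below the prediction, is described here. They were taken with a descriptive symbol and a group mean of at least 5, and had absolute departures of 0.72 to 3.04 and unadjusted p of 0.000987 to 0.00492, all with a limma adjusted p of 0.677. In 17 of them benzo[a]pyrene was the group farthest from the middle of the 4 groups, the exceptions being DPYD, cxxc1 and gadd45a. In 15 the mixture mean lay inside the range of the unexposed libraries, the exceptions being FAM132B, msl1, cxxc1, e4f1 and prdx6. The contrast weighs all 4 groups equally in size, so it picks out genes in which 1 group stands apart, whichever group that is. It also picks out genes in which both single exposures differ from both unexposed and mixture livers, as in DPYD and gadd45a. The genes were picked by the p of this same contrast, and the share of these layouts over all genes was not counted. These counts therefore describe the genes and test nothing.

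Among those above the prediction, lgals3 (galectin-3, a sugar-binding protein) had the largest departure. It stood at 23.4, 10.1, 33.5 and 21.2 in unexposed, 8.17, 1.89, 13.1 and 2.43 in benzo[a]pyrene, 18.6, 11.9, 13.6 and 16 in triclosan and 23.5, 18.5, 16.7 and 36 in mixture livers. All mixture libraries lay above all benzo[a]pyrene ones and overlapped the other groups, against a prediction of 3.45 (departure 2.41, SE 0.65). The Rab8 exchange factor rab3ip was tightly measured, at 53.9 to 61.3 in unexposed, 33.9 to 38 in benzo[a]pyrene, 47 to 54.8 in triclosan and 47.5 to 65.5 in mixture livers. Here benzo[a]pyrene lay below all other libraries and the departure was 0.84 (SE 0.22). DPYD, which starts pyrimidine breakdown, had means of 5.39 ± 0.972, 3.83 ± 0.77, 3.9 ± 0.717 and 5.8 ± 0.735 in unexposed, benzo[a]pyrene, triclosan and mixture livers (SD, n = 4; departure 0.89, SE 0.24). The departures of the remaining genes on this side were 0.96 for slc25a21, a mitochondrial oxodicarboxylate carrier, 0.99 for timm9, a chaperone of mitochondrial protein import, and 1.05 for hdlbp, the RNA-binding protein vigilin.

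Gadd45a, a growth arrest and DNA damage response gene, stood low with either compound alone. It stood at 4.46, 4.27, 9.65 and 19 in unexposed, 2.58, 2.13, 4.69 and 1.73 in benzo[a]pyrene, 2.78, 1.31, 3.13 and 2.85 in triclosan and 11.7, 3.3, 2.14 and 7.41 in mixture livers. The triclosan libraries lay below all unexposed ones, while the mixture overlapped every group. Additivity predicted 0.409, below all mixture libraries (departure 2.13, SE 0.65). The p53 and DNA damage list as a whole had 6 of 15 tested members above 0 and a median departure of -0.11. Its death receptor member fas stood on the other side, at 2.81 ± 0.306, 6.28 ± 2.15, 2.84 ± 0.745 and 3.16 ± 0.714 in the same order of groups (SD, n = 4; departure -0.76, SE 0.30, limma adjusted p = 0.677).

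Below the prediction, several genes stood high with benzo[a]pyrene alone. Vimentin (vim), an intermediate filament protein of mesenchymal cells, stood at 105, 95.2, 73.9 and 95.6 in unexposed, 167, 226, 170 and 248 in benzo[a]pyrene, 74.8, 58.1, 135 and 135 in triclosan and 70.8, 78.4, 108 and 45.8 in mixture livers. Those of benzo[a]pyrene lay above all others and those of the mixture under the prediction of 206 (departure -1.49, SE 0.43). The tissue plasminogen activator plat stood at 4.63 to 5.92, 7.49 to 13.8, 3.8 to 6.37 and 3.13 to 6.89 in unexposed, benzo[a]pyrene, triclosan and mixture libraries (departure -1.06, SE 0.31). The actin regulator abi1 and the microtubule protein gene mapt had departures of -0.96 (SE 0.29) and -1.24 (SE 0.34). The zinc finger transcription factor e4f1 had the smallest absolute departure of the 20, -0.72 (SE 0.21).

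Endoplasmic reticulum (ER) chaperones and genes of the unfolded protein response had the highest median departure of all lists with at least 6 tested genes. This machinery folds the plasma proteins that hepatocytes secrete. Of 30 tested members, 29 lay above the prediction and 1 below, with a median of 1.27. An unadjusted p below 0.05 was reached by 17 above and 0 below, while 0 passed over all genes. Among all genes tested, 47.6% lay above the prediction, and 3.32% did so at an unadjusted p below 0.05. Alone, each compound stood below unexposed on this list (median log2 differences of -0.94 for benzo[a]pyrene and -0.51 for triclosan), whereas the mixture stood at -0.20. The sum of the single changes thus put the prediction far below all groups.

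Subunits of the translocon, the channel through which new proteins enter the ER, had the smallest p on this list. The translocon-associated subunit ssr4 (ENSXETG00000000730, scaffold GL172958.1, 1140942 to 1145185) stood at 360, 247, 348 and 398 in unexposed, 148, 160, 170 and 150 in benzo[a]pyrene, 261, 263, 290 and 155 in triclosan and 319, 208, 273 and 379 in mixture livers. Every benzo[a]pyrene library was below every unexposed and mixture library, and triclosan replicate 4 was the only triclosan library in the benzo[a]pyrene range. The prediction was 111 and the departure 1.37 (SE 0.34, limma adjusted p = 0.677). The channel subunit sec61a1 stood at 61.9, 23.8, 124 and 118 in unexposed, 31.8, 28.7, 40 and 15.5 in benzo[a]pyrene, 36.7, 53.6, 41.5 and 25.4 in triclosan and 86.2, 37.3, 69.4 and 119 in mixture livers. Unexposed replicate 2 lay in the range of the single exposures and the mixture overlapped all groups (prediction 15, departure 2.19, SE 0.68). Another translocon-associated subunit, ssr1, had a departure of 1.15 (SE 0.39).

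The ER-resident chaperones spread more between livers. Hspa5 (BiP), the main Hsp70 of the ER, stood at 3.65, 1.13, 133 and 46 in unexposed, 2.49, 2.6, 3.32 and 0.849 in benzo[a]pyrene, 2.36, 6.62, 2.87 and 4.08 in triclosan and 39.3, 2.94, 2.85 and 7.01 in mixture livers. Unexposed replicates 3 and 4 and mixture replicate 1 stood apart from the rest, and all groups overlapped. The prediction, -0.0519, is a level that cannot occur, but it is close to 0 and enlarges the departure of 3.14 only a little (SE 1.50, adjusted p = 0.692). A prediction below 0 arose for 41 genes, among them 3 of this list. All 41 departures are above 0 by construction, since a measured level cannot be negative. The secreted ER factor manf, at 0.249 to 22.7 in unexposed and 0.529 to 5.91 in mixture libraries, is another such gene. Its prediction of -0.527 lies farther below 0 and enlarges the departure more (2.44, SE 1.04). Pdia3, a disulfide isomerase, stood at 61.9 ± 21, 19.8 ± 9.14, 45.2 ± 18.7 and 43.2 ± 20 in unexposed, benzo[a]pyrene, triclosan and mixture livers (SD, n = 4; departure 1.57, SE 0.57). Prdx4, an ER peroxiredoxin on the antioxidant list, stood at 53.9 ± 15.2, 27.9 ± 8.99, 38.9 ± 11.7 and 55.8 ± 13.1 in the same order (departure 1.47, SE 0.43), with all mixture libraries above all benzo[a]pyrene ones.

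Scores per library, the mean over list members of the log2 level less that gene's average over all libraries, showed how much single livers weighed. On the ER list, unexposed livers scored 0.03, -0.49, 1.22 and 0.89, benzo[a]pyrene livers -0.37, -0.25, -0.40 and -0.94, triclosan livers -0.36, 0.13, 0.00 and -0.32, and mixture livers 0.83, -0.21, 0.19 and 0.04. The unexposed group held both the highest score and, after benzo[a]pyrene replicate 4, the lowest. The median departure of the list ranged from 0.99 without unexposed replicate 3 to 1.50 without unexposed replicate 2, and was 1.19 without benzo[a]pyrene and mixture replicates 4. Of the 38 lists with at least 6 tested genes, 32 had a median that moved by over 1.5 times or crossed 0 when some single library was left out. The other 6 were the ER, bile acid, cell cycle, nuclear receptor, erythroid and lymphocyte lists.

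**Figure D3:**
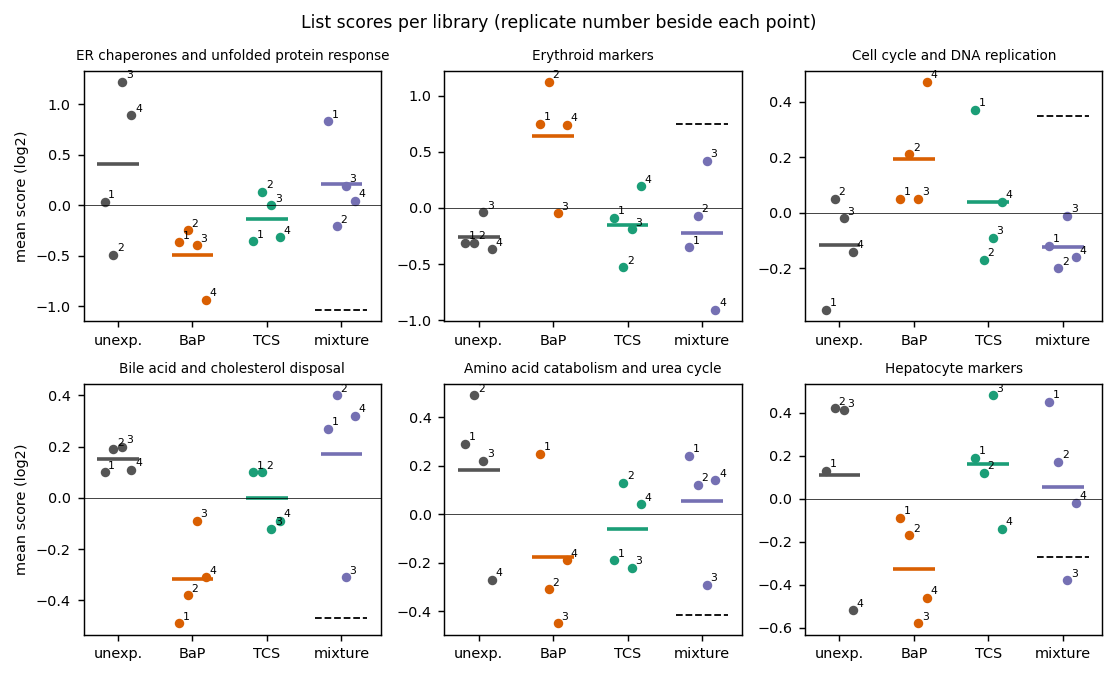
Scores of 6 gene lists in each library (y axis, mean log2 level relative to each gene's average across the 16 libraries), 1 point per library with its replicate number, coloured lines at group means and a dashed black line at the additive prediction for the mixture. On the ER list all mixture libraries lie above the dashed line, and on the erythroid list benzo[a]pyrene replicates 1, 2 and 4 lie at 0.74 to 1.12 and replicate 3 at -0.05.

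Transcripts of red blood cells had the lowest median departure of all lists with at least 6 tested genes, -0.90. Of 20 tested erythroid markers, 1 lay above the prediction and 19 below, 0 and 8 of them at an unadjusted p below 0.05, with 0 called. Among all genes tested, 47.6% lay above the prediction, and 3.67% lay below it at an unadjusted p below 0.05. Frog red cells keep their nucleus and circulate with RNA. Benzo[a]pyrene livers stood 0.87 above unexposed at the median of the list, while triclosan and the mixture stood at 0.04 and 0.05. In bulk tissue, more cells of a type and more RNA per cell cannot be told apart. Scores were 0.75, 1.12, -0.05 and 0.74 in benzo[a]pyrene livers, -0.37 to -0.04 in unexposed, -0.53 to 0.19 in triclosan and -0.35, -0.07, 0.42 and -0.91 in mixture livers. The median departure ranged from -1.13 without mixture replicate 3 to -0.66 without mixture replicate 4, and was -0.69 without both replicates 4 and -0.56 with a pseudocount of 5.

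The globin hbd (ENSXETG00000024626, scaffold GL173369.1, 334930 to 336628) had the largest absolute departure of the 20 named genes. It stood at 345, 77.7, 68.2 and 89.9 in unexposed, 921, 1230, 368 and 1271 in benzo[a]pyrene, 216, 95.7, 146 and 306 in triclosan and 83.1, 161, 457 and 101 in mixture livers. All benzo[a]pyrene libraries lay above all unexposed and triclosan ones, and mixture replicate 3 lay above benzo[a]pyrene replicate 3. The prediction was 1309 and the departure -3.04 (SE 0.86, limma adjusted p = 0.677). Reads may be shared between globin genes of like sequence, which was not examined, and hba1 and hbg1 could not be tested.

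Other red cell genes followed hbd in layout. The erythropoietin receptor epor stood at 4.89, 4.7, 6.88 and 5.66 in unexposed, 15, 25.8, 7.85 and 12 in benzo[a]pyrene, 4.82, 5.09, 4.86 and 5.21 in triclosan and 4.41, 5.94, 7.97 and 3.07 in mixture livers (departure -1.18, SE 0.41). Benzo[a]pyrene replicate 3 was its group's lowest and mixture replicate 3, the mixture's highest, was the only other library above it. The membrane skeleton gene ank1 stood at 23.3 to 31.4, 46.9 to 107, 24.1 to 41.7 and 19.5 to 63.4 in unexposed, benzo[a]pyrene, triclosan and mixture libraries (departure -1.33, SE 0.49). FAM132B, erythroferrone, which erythroblasts of mammals secrete to lower hepcidin, was not on the list. It stood at 6.91, 6.69, 11 and 6.62 in unexposed, 14.6, 36.2, 15.3 and 34.1 in benzo[a]pyrene, 9.85, 4.57, 13 and 16.6 in triclosan and 6.28, 6.86, 9.01 and 2.17 in mixture livers. All benzo[a]pyrene libraries lay above all unexposed and mixture ones (prediction 29.7, departure -2.23, SE 0.58, adjusted p = 0.677).

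Cell cycle and DNA replication genes also lay below the prediction. Of 25 tested, 3 lay above and 22 below 0 with a median of -0.63, and 10 below at an unadjusted p below 0.05, while 0 were called. The share of all genes below 0 at that p was 3.67%, and 47.6% of all genes lay above 0. The centromere protein cenpk stood at 0.679, 0.676, 0.681 and 0.277 in unexposed, 1.56, 1.94, 1.46 and 1.94 in benzo[a]pyrene, 1.15, 0.954, 0.439 and 0.88 in triclosan and 0.826, 1.13, 0.793 and 0.511 in mixture livers. Benzo[a]pyrene lay above all other libraries, at levels where the added 1 shrinks log differences (departure -0.82, SE 0.22). The clamp loader subunit rfc4 and the ribonucleotide reductase subunit rrm1 had departures of -0.77 (SE 0.28) and -0.99 (SE 0.33). The size of the list's median depended on the scale, at -0.87 with a pseudocount of 0.1 and -0.21 with a pseudocount of 5. It also depended on the genes kept, at -0.11 among the fewer members with a mean level of at least 5.

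Immune markers mostly lay on the same side. For comparison, 47.6% of all genes lay above 0, and 3.67% lay below it at an unadjusted p below 0.05. All 6 tested lymphocyte markers lay below 0 (median -0.77, but -0.28 with a pseudocount of 5; 2 at an unadjusted p below 0.05), as did 6 of 7 macrophage and Kupffer markers (median -0.49, and -0.24 without triclosan replicate 3; 0) and 12 of 13 interferon and innate immunity genes (median -0.30, and -0.18 without mixture replicate 1; 1), with 0 called in each. The T cell receptor subunit cd3g stood at 0.481, 1.22, 0.64 and 0.763 in unexposed, 2.25, 1.29, 1.69 and 3.73 in benzo[a]pyrene, 0.577, 1.61, 2.65 and 0.953 in triclosan and 0.165, 1.05, 0.236 and 0.656 in mixture livers. All mixture libraries lay below all benzo[a]pyrene ones and triclosan replicate 3 was high (departure -1.48, SE 0.39, adjusted p = 0.677). Its partner cd3e and the B cell marker ms4a1 had departures of -1.05 (SE 0.37) and -0.90 (SE 0.44). The interferon regulatory factor irf1 stood at 6.14 ± 2.21, 11.6 ± 3.62, 7.22 ± 2.56 and 5.58 ± 0.628 in unexposed, benzo[a]pyrene, triclosan and mixture livers (SD, n = 4; departure -1.12, SE 0.38). The lysosomal protease ctss had its lowest mean in the mixture, at 11.1 ± 3.81 against 21.2 to 23.2 elsewhere (SD, n = 4; departure -0.90, SE 0.49). Triclosan replicate 3 stood at 41.8 and its group's others at 12.1 to 16.3, near the mixture's 7.63 to 15.9, and the departure was -0.52 without it. Granulocyte markers split, with 5 of 8 above 0 and a median of 0.11, which was -0.19 without benzo[a]pyrene replicate 2 and 0.70 without triclosan replicate 3.

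Summed levels of the erythroid markers were set beside those of the hepatocyte markers, whose ranges overlapped between all groups. The summed level of the erythroid markers with at least 3 usable values in each group was 4927 to 16747 in benzo[a]pyrene livers. It was 1987 to 3061 in unexposed, 1115 to 3554 in triclosan and 1218 to 3126 in mixture livers. That of the hepatocyte markers was 10020 to 19041 in benzo[a]pyrene, 12905 to 27612 in unexposed, 12328 to 27161 in triclosan and 14781 to 23054 in mixture livers. The erythroid sum leaves out the abundant globins hba1 and hbg1. Usable hbg1 levels, 19968 to 99324, exceeded that sum and overlapped between all groups. The part of red cell content in the departures of ER and metabolic genes was not tested.

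Metabolic functions of the hepatocyte mostly lay above the prediction, by less than the ER list. Hepatocyte markers had 18 of 25 tested members above 0 and a median of 0.22, which was 0.12 without triclosan replicate 4 and 0.46 without benzo[a]pyrene replicate 1. Bile acid and cholesterol disposal had 10 of 12 above 0 (median 0.69, 3 above and 1 below at an unadjusted p below 0.05) and amino acid catabolism and the urea cycle 31 of 38 (median 0.42, and 0.65 without benzo[a]pyrene replicate 1; 4 and 0). Steroid and retinoid metabolism had 17 of 19 above 0 (median 0.35, and 0.16 without triclosan replicate 4; 1 and 0), and the insulin and IGF axis 10 of 11 (median 0.38, and 0.62 without benzo[a]pyrene replicate 1; 1 and 0). Acute phase, coagulation and complement had 30 of 41 (median 0.32, but 0.16 without triclosan replicate 4 and 0.53 without unexposed replicate 4; 1 and 0). Across these 6 lists 0 genes were called. Over all genes tested, 47.6% lay above 0, and 3.32% lay above it at an unadjusted p below 0.05. Among genes with a mean level of at least 50, 61.8% lay above 0, and the part of level in these counts was not tested.

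Akr1d1, the steroid 5-beta-reductase of bile acid synthesis, stood at 63.2, 29.7, 15.2 and 43 in unexposed, 8.95, 22.8, 18.7 and 21 in benzo[a]pyrene, 26.7, 13.6, 7.12 and 11.9 in triclosan and 25.5, 48.2, 15.6 and 20.6 in mixture livers. The single exposures stood low, the mixture overlapped all groups, and the prediction of 6.45 lay under all mixture libraries (departure 1.81, SE 0.66, limma adjusted p = 0.677). The basolateral bile acid transporter subunit slc51a had a departure of 0.94 (SE 0.38). The sterol 27-hydroxylase cyp27a1 lay on the other side, at 31.5 ± 7.19, 50.5 ± 27.2, 32.2 ± 9.01 and 20.1 ± 8.42 in unexposed, benzo[a]pyrene, triclosan and mixture livers (SD, n = 4; departure -1.28, SE 0.52). Benzo[a]pyrene replicate 4, at 90.8, and mixture replicate 4, at 8.79, were the extremes of that gene, and its departure was -0.62 without both.

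In amino acid metabolism the tyrosine aminotransferase tat had a mixture mean above those of all other groups. It stood at 18.6, 28.8, 29 and 20.3 in unexposed, 11.6, 30.3, 12.9 and 28.5 in benzo[a]pyrene, 12.5, 12.2, 7.93 and 20.9 in triclosan and 58.7, 22.1, 15.5 and 72.5 in mixture livers. Mixture replicates 1 and 4 stood above every other library, and replicates 2 and 3 among them (departure 1.70, SE 0.64, adjusted p = 0.677; 1.54 without benzo[a]pyrene and mixture replicates 4). The cystathionine gamma-lyase cth, which makes cysteine, and the methionine adenosyltransferase mat1a had departures of 1.55 (SE 0.52) and 1.12 (SE 0.45). For both, the single exposures had lower means than unexposed and the mixture mean was close to it, at 5.24 against 5.4 for cth and 3.17 against 3.37 for mat1a.

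Genes of hormone transport, growth, fatty acid binding and egg yolk had departures with SEs from 0.55 to 1.95. Transthyretin (ttr), a carrier of thyroid hormone, stood at 200, 625, 342 and 344 in unexposed, 169, 49.3, 80.1 and 71.2 in benzo[a]pyrene, 367, 297, 369 and 262 in triclosan and 276, 199, 113 and 160 in mixture livers. The mixture mean of 187 lay between those of benzo[a]pyrene and triclosan, 92.5 and 324, and its libraries overlapped every group (prediction 76.6, departure 1.20, SE 0.55, adjusted p = 0.692). Igf1, the hepatic growth factor, had a departure of 1.44 (SE 0.80), which was 0.94 without mixture replicate 1. The fatty acid binding protein fabp1 stood at 36.7, 15.2, 28.9 and 200 in unexposed, 74, 27.7, 5.68 and 13.3 in benzo[a]pyrene, 18.7, 11, 19.5 and 8.05 in triclosan and 25.8, 4, 228 and 914 in mixture livers. Mixture replicates 3 and 4 stood above all other libraries, and the departure of 3.37 had an SE of 1.82 and was 2.15 without mixture replicate 4. The vitellogenin vtga2, an egg yolk precursor made by the female liver under oestrogen, stood at 57.4 to 2731 in unexposed and 159 to 5495 in the exposed libraries, and its departure of -0.95 had a confidence interval of -5.11 to 3.22.

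Hepatocyte transcription factors and nuclear receptors had 16 of 18 tested members above 0 (median 0.30, 3 above at an unadjusted p below 0.05, 0 called). The shares over all genes were 47.6% above 0 and 3.32% above at that p. Cebpa, which drives hepatocyte genes, stood at 43.3, 41.5, 56.9 and 46.8 in unexposed, 25.1, 15.2, 23.9 and 8.24 in benzo[a]pyrene, 19.4, 40.1, 32.2 and 28.2 in triclosan and 46, 25, 11.7 and 35.2 in mixture livers. Both single exposures lay below unexposed in every library, and the mixture spread from the benzo[a]pyrene to the unexposed range (departure 1.30, SE 0.55, adjusted p = 0.678; 0.86 without benzo[a]pyrene and mixture replicates 4). The clock repressor nr1d1 is also a nuclear receptor, but it was counted on the clock list and not among these 18. Nr1d1 stood at 7.06, 14.2, 4.87 and 6.16, at 10.5, 14, 14.9 and 30.2, at 12.2, 11.4, 13.1 and 10.2, and at 4.36, 7.7, 8.79 and 8.93 in unexposed, benzo[a]pyrene, triclosan and mixture libraries. The mixture lay below all libraries of either single exposure, and its departure was -1.64 (SE 0.46, adjusted p = 0.677). The clock repressor cry2 had a departure of -1.10 (SE 0.38), while the 10 tested clock genes split evenly, 5 above and 5 below 0. Times of day are not named in the sources used here.

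**Figure D4:**
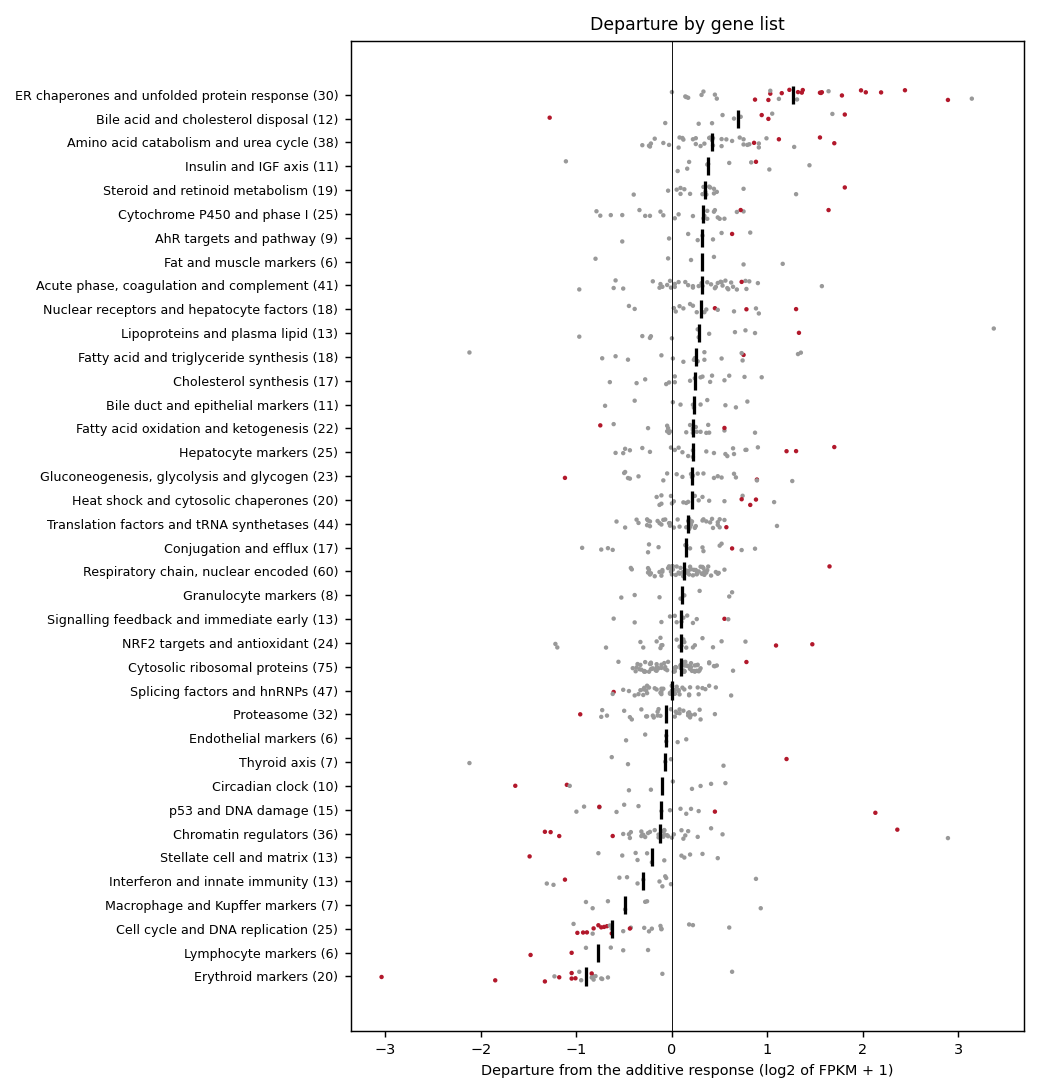
Departure of each tested member (x axis, log2 of FPKM + 1) in the 38 lists with at least 6 tested genes, ordered by their median, which is marked by a black bar. The number of tested genes follows each name and red points have an unadjusted p below 0.05. The ER chaperone list lies at the top with a median of 1.27 and the erythroid list at the bottom with -0.90.

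The AhR, P450, conjugation and antioxidant lists had medians above 0, from 0.09 to 0.33. Beside them, 47.6% of all genes lay above 0, and 3.32% did so at an unadjusted p below 0.05. Of 9 tested AhR targets and pathway genes, 7 lay above 0 (median 0.32, 1 at an unadjusted p below 0.05). That median was 0.17 without benzo[a]pyrene replicate 4 and 0.50 without unexposed replicate 2. Cyp1a1, the classic AhR target, stood at 45.3, 31.9, 47.2 and 36 in unexposed, 21.6, 35.2, 30 and 13.2 in benzo[a]pyrene, 29.1, 25.1, 55.7 and 36.8 in triclosan and 72.8, 46.7, 17.1 and 33 in mixture livers. All 4 groups overlapped, and the departure was 0.82 (SE 0.55, confidence interval -0.36 to 2.00, adjusted p = 0.773), or 0.50 without mixture replicate 1. Every library listed cyp1b1 at 0, and means of cyp1c1, ahrr and ahr were at most 0.189, 0.0565 and 0.0721, so these had no departure to test. The AhR target tiparp, at 2.4 ± 0.52, 2.58 ± 0.556, 2.99 ± 0.685 and 3.29 ± 1.66 in unexposed, benzo[a]pyrene, triclosan and mixture livers (SD, n = 4), had a departure of -0.03 (SE 0.33, confidence interval -0.74 to 0.67).

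Of 25 tested cytochrome P450 and phase I genes, 16 lay above 0 (median 0.33, and 0.13 without triclosan replicate 4; 2 above at an unadjusted p below 0.05, 0 called). The P450 cyp2a13 (ENSXETG00000009665) stood at 5.08, 8.18, 8.12 and 6.23 in unexposed, 1.65, 1.02, 3.1 and 2.16 in benzo[a]pyrene, 1.3, 5.11, 7.16 and 5.21 in triclosan and 3.38, 9.92, 4.59 and 3.69 in mixture livers. Benzo[a]pyrene lay below all unexposed and mixture libraries (prediction 0.912, departure 1.64, SE 0.52). A further gene listed under that symbol, ENSXETG00000011104, had a departure of -0.75 (SE 0.41), and reads may be shared between them. Cyp2d6 and the glucuronosyltransferase ugt1a6, of the enzyme family that conjugates phenols such as triclosan, had departures of 0.72 (SE 0.32) and 0.63 (SE 0.25). Conjugation and efflux genes had 10 of 17 above 0 (median 0.15, members from -0.94 to 0.87). Antioxidant genes had 14 of 24 above 0 (median 0.09, members from -1.22 to 1.47). The antioxidant median was -0.09 without mixture replicate 2 and kept its sign in 21 of 27 alternatives. On the antioxidant list, prdx6 stood at 80.9 to 114, 32.3 to 53.2, 60.2 to 91.9 and 52.6 to 97.2 in unexposed, benzo[a]pyrene, triclosan and mixture libraries (departure 1.09, SE 0.32). Nqo1, a quinone reductase, had a departure of 0.43 (SE 0.46), which was 0.07 without mixture replicate 4, at 5.36 against 1.15 to 1.5 in the rest of its group, and 0.19 without triclosan replicate 4.

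Some genes with a sizeable single-exposure difference stood close to the prediction. Nmrk2, a nicotinamide riboside kinase, stood at 32.9, 12, 48.1 and 41.5 in unexposed, 86.7, 117, 76.7 and 52.7 in benzo[a]pyrene, 17.9, 28, 18.3 and 21.4 in triclosan and 34.5, 56.7, 102 and 44 in mixture livers. Benzo[a]pyrene stood above and triclosan mostly below unexposed. The mixture level taken from the log2 mean, 54.5, lay beside the prediction of 56.8, which is also taken from log2 means (departure -0.06, SE 0.57). The confidence interval, -1.27 to 1.15, still includes departures of 2-fold either way. Cyp3a4, a P450 of drug metabolism, also had a departure near 0, 0.07 (SE 0.53), but without a sizeable single-exposure difference. Its differences from unexposed were -0.15 for benzo[a]pyrene and 0.43 for triclosan (SE 0.37 for each). The glucose-6-phosphatase genes listed as g6pc and G6PC had departures of -0.44 (SE 0.89) and -0.49 (SE 1.11), with wide spreads in every group.

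For other genes the mixture was no farther from unexposed than the farther of the single exposures. Dusp6, a phosphatase that shuts off ERK signalling, stood at 2.18, 2.18, 2.54 and 2.29 in unexposed, 1.27, 1.44, 1 and 0.8 in benzo[a]pyrene, 1.06, 1.17, 1.97 and 1.45 in triclosan and 1.01, 1.39, 1.26 and 1.36 in mixture livers. All exposed libraries lay below all unexposed ones and the 3 exposed groups overlapped (prediction 0.535, departure 0.55, SE 0.19, adjusted p = 0.677). The glycerol-3-phosphate dehydrogenase gpd1 had the same layout, at 31.3 ± 2.65, 18.8 ± 5.82, 18 ± 3.24 and 19.9 ± 4.59 in unexposed, benzo[a]pyrene, triclosan and mixture livers (SD, n = 4; departure 0.88, SE 0.31). A further gene listed as GPD1 lacked it, at 4.11 ± 4.4, 2.15 ± 1.06, 2.3 ± 1.37 and 3.41 ± 3.16 in the same order, with all groups overlapping (departure 0.62, SE 0.87). Impdh2, which makes guanine nucleotides, stood at 41.8 ± 4.82, 19.9 ± 3.19, 32.6 ± 8.55 and 27.5 ± 4.23 (departure 0.83, SE 0.30). Hpgd, the enzyme that inactivates prostaglandins, stood at 5.22 ± 1.43, 20 ± 11.2, 3.52 ± 0.847 and 6.71 ± 2.34 (departure -0.92, SE 0.44, and -0.59 without benzo[a]pyrene replicate 2).

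Large assemblies of the cell centred near additivity. Median departures were 0.09 for 75 cytosolic ribosomal proteins, 0.13 for 60 nuclear-encoded respiratory chain subunits, -0.06 for 32 proteasome subunits, 0.17 for 44 translation factors and tRNA synthetases, and -0.00 for 47 splicing factors. Within them, the ribosomal protein rps27 and the electron carrier cycs had departures of 0.78 (SE 0.30) and 1.65 (SE 0.71), and the proteasome activator subunit psme2 and the splicing regulator hnrnpm -0.96 (SE 0.44) and -0.61 (SE 0.27), none past the test. Medians were also modest for cytosolic chaperones (0.21 over 20 genes), glucose metabolism (0.21 over 23), fatty acid oxidation (0.22 over 22), fatty acid synthesis (0.25 over 18), cholesterol synthesis (0.24 over 17), lipoproteins (0.28 over 13), bile duct markers (0.23 over 11), signalling feedback genes (0.10 over 13), stellate cell and matrix genes (-0.21 over 13), the thyroid axis (-0.07 over 7) and endothelial markers (-0.06 over 6). Fat and muscle markers had a median of 0.32 over 6 genes. Vitellogenesis, exocrine pancreas, gallbladder and gut, and ovary lists had 2, 1, 1 and 1 tested genes and the pigment cell list 0.

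The direction of the departure varied with the level of the gene. Of 544 genes with a mean level of at least 50, 61.8% lay above the prediction (median 0.13), against 51.3% of 2212 genes between 5 and 50 (median 0.02), 43.4% of 3570 genes between 1 and 5 (median -0.06) and 46.3% of 695 genes below 1 (median -0.03). The list medians were not adjusted for level.

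The most extreme departures included many genes at short loci, with wide errors. Of 46 genes with a departure beyond 2 in either direction, 23 had loci under 250 bp, such as the small nucleolar RNA gene SNORD14, although these made up 128 of the 7021 genes tested. Their median SE was 1.13, against 0.34 for the longer loci, and poly(A) selection does not target small nucleolar RNA. Among the other 23, 14 lay above the prediction and 9 below. They include the ER chaperones hsp90b1 (2.89, SE 1.11) and calr (2.03, SE 0.87), named here after their values were seen, and THRSP, a lipogenic gene. THRSP stood at 3376, 26202, 3816 and 6406 in unexposed, 19209, 11428, 2882 and 23988 in benzo[a]pyrene, 6223, 4134, 9835 and 10095 in triclosan and 7584, 2058, 1307 and 2465 in mixture livers (departure -2.12, SE 1.03, adjusted p = 0.692). Unexposed replicate 2 was far above its group, and 3 mixture libraries lay below all other libraries.

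The departure can also be read as a compound's change with and without the other. The change from benzo[a]pyrene to mixture livers and that from unexposed to triclosan livers share no library and would be equal under additivity. Across the 7021 genes, which vary together, their Pearson correlation was 0.12 (Spearman 0.11), and they had the same sign in 53.8% of genes. The change from triclosan to mixture and that from unexposed to benzo[a]pyrene had a Pearson correlation of 0.10 (Spearman 0.12), with the same sign in 55.2%. Leaving out 1 library gave 0.05 to 0.22 for the first pair and -0.03 to 0.18 for the second, so the agreement between the paired changes was weak throughout. Spread between replicates lowers such correlations even where responses are additive, so they cannot decide whether additivity holds. For kdm6b the benzo[a]pyrene change was 1.23 without and -0.04 with triclosan, and for hbd 2.90 and -0.14, whereas for nmrk2 it was 1.39 and 1.33.

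**Figure D5:**
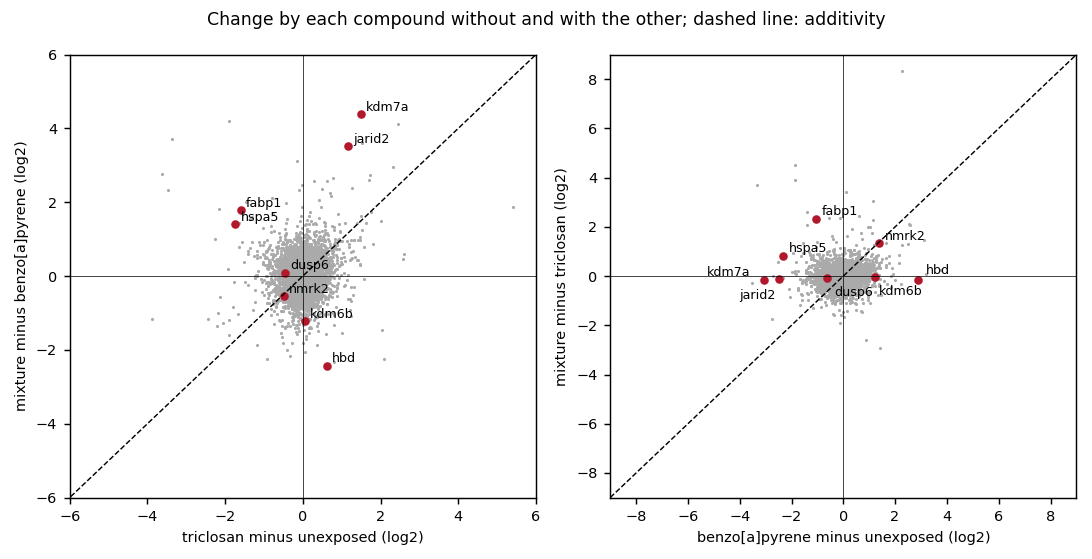
Left, the log2 difference of triclosan from unexposed livers (x axis) against that of mixture from benzo[a]pyrene livers (y axis). Right, the log2 difference of benzo[a]pyrene from unexposed livers (x axis) against that of mixture from triclosan livers (y axis). Each point is 1 of 7021 genes and the dashed line marks additivity, on which nmrk2 lies in both panels, while kdm6b and hbd lie near 0 on the y axis of the right panel.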

How the data were processed

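The deposited files hold gene-level FPKM that the authors made with Cufflinks, with a locus, a confidence interval and a status per gene. The submitters' processing notes name Cufflinks 0.0.7, TopHat2 0.6, TopHat, Bowtie 0.12.7 and Trimmomatic 0.32.1, with no role or order. The sources used here name neither a genome build nor the strand setting of the counting, so overlapping genes may share reads. Estimates whose status was not OK (54, of 10 genes) were treated as missing. Loci are printed 1-based.

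Groups and replicate numbers came from the labels. FPKM were divided by median-of-ratios factors over 3959 genes with an FPKM of at least 1 in all libraries and analysed as log2(rescaled FPKM + 1), which understates changes of low genes. Limma 3.58.1 in R 4.3.3 (trend and robust options, two-sided) fitted 1 mean per group with 12 residual degrees of freedom (median prior 3.3). P-values were Benjamini-Hochberg adjusted over 7021 genes, called below 0.05, and measure the spread between the labelled biological replicates. The procedure was tested on simulated data. Without read counts, depth is known only from the confidence intervals, and no detection limit is given.

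Named genes were the called ones (none here), the smallest p from the higher and lower side in turn up to 20 (descriptive symbol, a group mean of at least 5), up to 3 per gene list by smallest p, and a chosen set. Genes, lists and rules were chosen with earlier results of these data known. Alternatives were other rescalings, pseudocounts and filters, limma options, library weights, a replicate block, a linear scale and leaving out libraries. No sequences are printed.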

Additional observations from a re-analysis of the deposited data

Results flagged for a closer look

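Single libraries stood far from the other 3 of their group in 33 of 452 groups of 4 examined (genes named above and list scores), where about 1 in 20, or 23, would by chance. Values are log2(rescaled FPKM + 1) for genes and mean log2 scores for lists, and their part in the departures was not tested.

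In unexposed livers, replicate 4 stood apart for cenpk (0.35, others 0.75), lipoproteins (score -0.34, others 0.16 to 0.24) and the respiratory chain (-0.20, others 0.17 to 0.23). Replicate 1 did for rrm1 (0.74, others 1.22 to 1.30), hbd (8.44, others 6.11 to 6.51), cyp27a1 (5.43, others 4.83 to 4.89) and splicing factors (-0.21, others -0.08 to -0.07). Replicate 3 did for slc51a (3.12, others 2.18 to 2.27) and FAM132B (3.59, others 2.93 to 2.98).

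In benzo[a]pyrene livers, replicate 2 stood apart for rab3ip (5.29, others 5.13 to 5.15), nfix (0.74, others 0.27 to 0.34) and hpgd (5.24, others 3.84 to 4.03). Replicate 4 did for cxxc1 (3.22, others 2.80 to 2.86), hsp90b1 (1.76, others 2.74 to 2.86) and AhR genes (score -0.60, others -0.08 to -0.03). Replicate 3 was high in calr (5.94, others 4.68 to 4.85), and replicate 1 in interferon genes (score 0.91, others -0.10 to -0.01).

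In triclosan livers, replicate 2 stood apart for manf (1.08, others 0.34 to 0.39), cth (2.52, others 1.79 to 1.90) and gadd45a (1.21, others 1.92 to 2.05). Replicate 4 was low in ssr4 (7.29, others 8.03 to 8.18), vtga2 (7.45, others 11.38 to 11.96) and steroid and retinoid genes (score -0.33, others 0.07 to 0.13). Replicate 1 was high in igf1 (3.03, others 1.71 to 1.90) and low in hpgd (1.71, others 2.26 to 2.37), and replicate 3 low in abi1 (3.80, others 4.22 to 4.24).

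In mixture livers, replicate 4 stood apart for cry2 (0.51, others 1.24 to 1.37), nfix (1.40, others 1.67 to 1.71), nqo1 (2.67, others 1.11 to 1.32) and rps27 (7.54, others 7.26 to 7.29). Replicate 3 was low in slc51a (1.72, others 2.56 to 2.69), and replicate 1 high in timm9 (4.24, others 3.59 to 3.61) and AhR genes (score 0.22, others -0.01 to -0.00).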

How the results depend on the processing

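The departure was recomputed under 27 alternatives. Genes called were 0 in all but the fit with no filter on low values (1) and 2 fits leaving out 1 library (range 0 to 2: jarid2 and kdm6b without benzo[a]pyrene replicate 3, XB-GENE-5857146 without mixture replicate 3). The gene called with no filter was nt5dc4, at most 0.0795 rescaled FPKM in any library. Genes at an unadjusted p below 0.05 numbered 304 without rescaling, 918 with no filter, 205 with a mean of at least 5 and 318 without benzo[a]pyrene and mixture replicates 4, and 347 to 668 with 1 library left out. The triclosan factor called 0 genes without rescaling and 0 with the replicate block. It called 4 with library weights, 6 without benzo[a]pyrene replicate 3 and 3 without triclosan replicate 3. The benzo[a]pyrene factor called 3 with library weights, 4 without benzo[a]pyrene replicate 3 and 1 without benzo[a]pyrene replicate 2. The departure's share of the between-group sum of squares was 26.7% without both replicates 4 and 26 to 31.8% with 1 library left out. The triclosan correlation was 0.17 with library weights, 0.07 on the linear scale and 0.05 to 0.22 with 1 library left out, and the benzo[a]pyrene one -0.03 to 0.18. The cause of these shifts was not tested.

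Of 38 list medians, 23 kept their sign in every alternative. With a mean of at least 5, medians moved to -0.14 for conjugation, -0.31 for p53, 0.83 for insulin and IGF, -0.46 for thyroid, -0.11 for cell cycle, -0.43 for clock, 0.48 for nuclear receptor and -0.48 for endothelial genes. The filter on mean level kept fewer members of these lists, and how many is not given here. The endothelial value equals the departure of egfl7 (-0.48), the lowest on that list. It therefore does not show a shift of the whole list, and the other values under this filter may also rest on few genes. With a pseudocount of 0.1 list medians moved to -0.87 for cell cycle, -0.22 for chromatin and -1.67 for lymphocyte genes. With a pseudocount of 5 they moved to -0.21 for cell cycle, 0.48 for bile acid and -0.28 for lymphocyte genes. Library weights gave -0.22 for chromatin and 0.07 for stellate cell genes, the linear scale -0.64 for granulocyte genes, and leaving out both replicates 4 gave -0.42 for cell cycle and -0.14 for splicing genes. With 1 library left out, medians ranged from 0.13 to 0.36 for P450, -0.29 to -0.06 for p53, 0.29 to 0.62 for insulin, 0.58 to 0.91 for bile acid, 0.16 to 0.42 for steroid, -0.67 to -0.44 for cell cycle, -0.15 to 0.02 for splicing, -0.23 to -0.07 for chromatin and 0.10 to 0.46 for bile duct genes.

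Of 2004 departures of 75 named genes under alternatives, 1976 kept their direction and side of the threshold, 3 passed (the genes just named, other than nt5dc4) and 25 changed sign. Tiparp was 0.00 with a pseudocount of 5, 0.04 on the linear scale and -0.25 to 0.13 with 1 library left out. Cyp3a4 was -0.02, -0.16 and -0.23 to 0.42 in the same order, and -0.09 without both replicates 4, where G6PC was 0.04. With 1 library left out, G6PC ranged from -1.01 to 0.46, g6pc from -0.84 to 0.03, nmrk2 from -0.36 to 0.36 and vtga2 from -2.01 to 0.04.

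No pairing of samples by replicate number was seen, though this check cannot exclude a weak shared effect. Same-numbered libraries of different groups had a median correlation of deviations of -0.046, against 0.021 for others. Of 24 same-numbered pairs, 6 exceeded 0.1, and 4 of 16 libraries correlated best with their own number. With the number as a replicate block, 0 genes were called and 459 had an unadjusted p below 0.05.

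Limits: 4 livers per group gave a median confidence interval of 0.72 either side of the departure. Genes near 1 FPKM are compressed by the pseudocount, and the 41 genes with a predicted level below 0 have a departure above 0 by construction. The mixture's doses are unknown here.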

Other observations

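Of the 4 genes of the rule that could not be tested, the globin hbg1 had usable levels in 3 unexposed livers (39242, 66771 and 32209), 2 benzo[a]pyrene livers (37636 and 87300), 3 triclosan livers (99324, 31636 and 78689) and all 4 mixture livers (55024, 65262, 70583 and 19968). These ranges overlapped between all groups. The mitochondrial COX1 stood at 4138 to 12462 in 4 unexposed, 3049 and 5202 in 2 benzo[a]pyrene, 4990 to 10275 in 4 triclosan and 6514 to 12699 in 3 mixture livers. The benzo[a]pyrene value of 3049 lay below all others, and that group's other 2 libraries had no usable estimate.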
